A study of Mus musculus with 8 samples.

Results

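The genes described here build and copy DNA during S phase: 38 genes for origin licensing, the replicative helicase, the polymerases and their accessory factors, chromatin assembly behind the fork, deoxynucleotide supply and the E2F transcription factors that are known to control many of them. They were matched by gene symbol through the platform annotation, and the list was drawn up with earlier results of these data known, so the counts below are not independent evidence of its direction. The array named 16593 genes in all. Of the 38 genes, 35 had a probe (Gins1, Gins2 and Rfc3 had none) and 30 were tested. Mcm3, Mcm7, Cdc45, Pola1 and Prim1 had probes that were not above background on every array of any group, and they were not tested.

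RNA came from whole liver of Balb/c mice aged 2 months, on 8 Illumina bead arrays with 1 array per sample. The groups were wild type with vehicle (n = 1), IL-4/IL-13-/- with vehicle (n = 1), wild type with carbon tetrachloride (CCl4, n = 3) and IL-4/IL-13-/- with CCl4 (n = 3). The IL-4/IL-13-/- mice, called the knockout below, lack both type 2 cytokine genes. CCl4 is a solvent that hepatocytes turn into a radical which kills them, after which surviving cells of the liver are known to divide. The labels used here give no dose, route or time after CCl4, and they do not say how the alleles were made or whether each array held a separate animal, so the p-values below reflect only how these samples varied, and that variation could be technical.

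Before a cell divides, the origin recognition complex, Cdc6 and Cdt1 load the Mcm2 to Mcm7 helicase onto DNA. Cdc45, the GINS complex and Mcm10 then help to turn the helicase on, primase and the polymerases copy the strands, and the clamp Pcna, its loader, Fen1 and Lig1 finish the pieces of the lagging strand. Quiescent adult hepatocytes hold little of this machinery, and E2F factors released from the Rb protein are known to switch on many of its genes when cells enter S phase.

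Neither Il4 nor Il13 was detected on any of the 8 arrays (lowest detection p 0.272 and 0.0602, with 1 probe each), so these probes do not check the genotype labels. Median raw intensity was 68.5 to 76.9 on the wild-type CCl4 arrays and 63.6 to 66.9 on the knockout CCl4 arrays, and 8899 to 9821 of 25697 probes were detected per array. Among the hepatocyte markers, Apoa1 stood between 13.75 and 14.28 on the normalized log2 scale on every array, whereas the probe of Alb was detected on 4 arrays and those of Tat and Fgb on 0. The lowest signal of a detected probe was 5.78 to 6.12 on this scale, and values near 5 are background. In whole liver, more cells of a dividing type and more RNA per cell cannot be told apart.

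After CCl4 most of these genes were higher. Of the 30 tested, 26 rose and 1, Mcm10, fell as the mean of both genotypes, where 37.5% of all 7257 tested genes changed, 18.9% up and 18.6% down. A gene that was below background in both vehicle livers could enter the test only by being high after CCl4, and 9 of the 30 entered that way, so the share of 26 in 30 is not evidence by itself. The 15 genes that were detected on all 8 arrays did not enter by being high after CCl4. A gene that CCl4 took to background would be missing from them, however. Of these 15, 14 rose and 1 fell, against 16.7% up and 17.4% down among the 5700 genes detected on all 8 arrays. Of the 16 genes detected on both vehicle arrays, whatever their level after CCl4, 14 rose, 1 fell and 1, Dut, was not called. All 6 CCl4 arrays lay above both vehicle arrays for 23 of the 30 (19% of all genes) and below both for 2, Mcm10 and Dut (19.8% of all genes), the latter with wild-type replicate 2 level with the wild-type vehicle array to 2 decimals. The median log2 difference of the 30 was 1.05, against -0.02 for all genes (a difference of 1 is a 2-fold change).

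**Figure D1:**
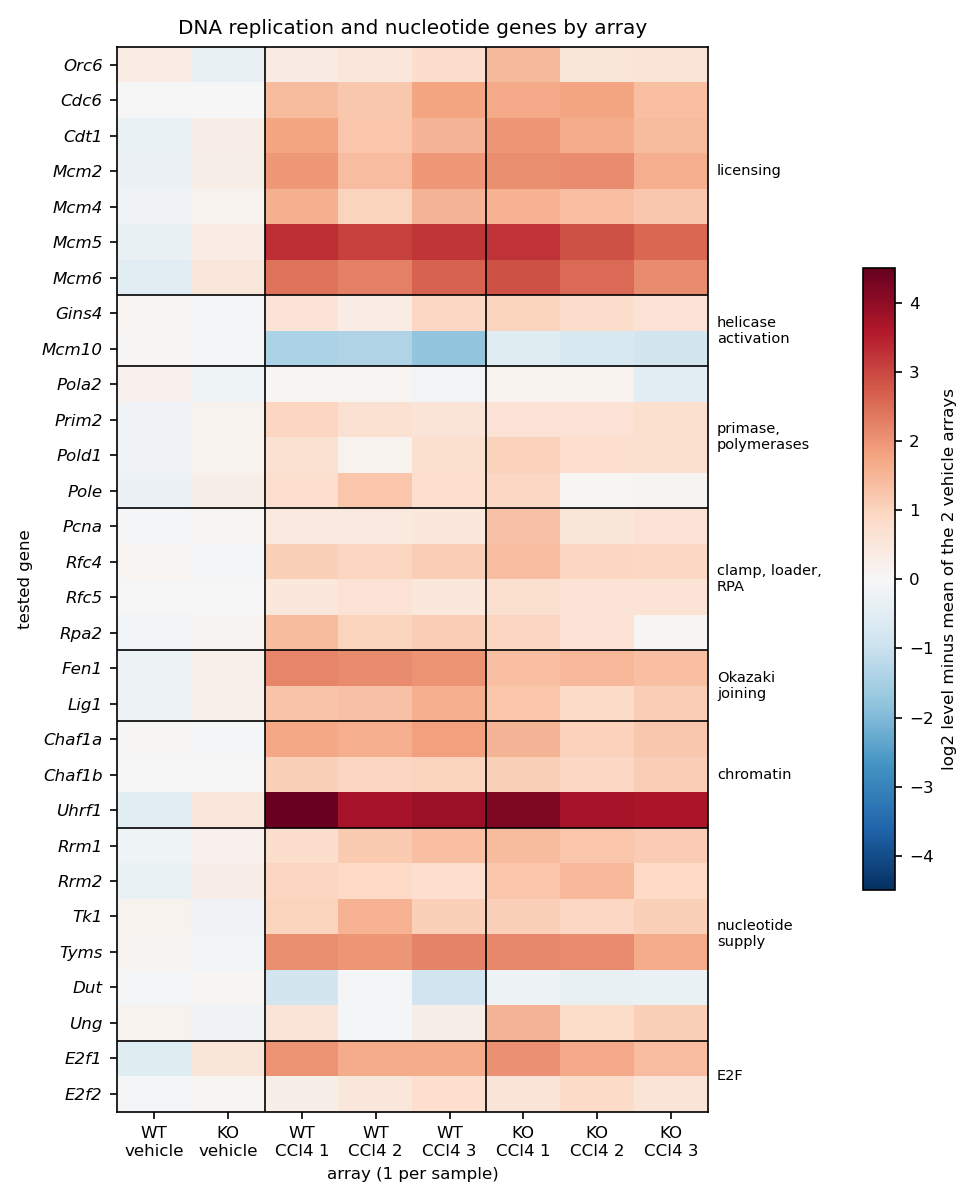
Normalized log2 level of the 30 tested genes (rows, grouped by role) on the 8 arrays (columns), drawn as the difference from the mean of the 2 vehicle arrays, with red for higher and blue for lower. The CCl4 columns are red in nearly every row. Mcm10 is below the vehicle mean on every CCl4 array, and so is Dut, by less.

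Licensing genes were higher in both genotypes. All 7 that were tested passed the threshold for the mean response, with a median log2 difference of 1.61 and a range from 0.71 to 3.05. Mcm5, a subunit of the helicase ring, stood at 5.75 in the wild-type vehicle liver and 6.45 in the knockout vehicle liver. After CCl4 it reached 9.42, 9.17 and 9.32 in wild type and 9.34, 8.95 and 8.70 in knockout liver. The CCl4 arrays were therefore all far above both vehicle arrays, and the genotypes overlapped. The difference was 3.05 ± 0.18 (log2 ± SE, adjusted p = 5.45e-07), and it was 3.55 ± 0.26 in wild type, at least 9.07-fold since the wild-type vehicle signal was not above background.

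Mcm6, another ring subunit, rose by 2.48 ± 0.20 (adjusted p = 5.67e-06), from 5.22 and 6.22 on the wild-type and knockout vehicle arrays to between 7.83 and 8.57 on the CCl4 arrays (8.17, 8.0 and 8.36 in wild type, 8.57, 8.28 and 7.83 in the knockout). Its second probe above background rose by 1.87. Mcm2, whose N-terminus is known to carry histones, was not above background on either vehicle array (5.35 in wild type, 5.87 in the knockout). It reached 7.55, 6.99 and 7.56 in wild type and 7.69, 7.72 and 7.24 in knockout liver after CCl4, with a difference of 1.85 ± 0.20 (adjusted p = 5.42e-05), at least 2.59-fold. The loaders moved with the ring. Cdt1 rose by 1.61 ± 0.19 and Cdc6, which was below background in both vehicle livers, by 1.55 ± 0.19 (at least 1.53-fold). Mcm4 rose by 1.38 ± 0.19.

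Orc6, the smallest subunit of the origin recognition complex, passed for the mean response (0.71 ± 0.24, adjusted p = 0.0376), but its CCl4 response was 1.20 ± 0.34 in the knockout (adjusted p = 0.0252) and 0.23 ± 0.34 in wild type (adjusted p = 0.66). It stood at 7.63 in the wild-type vehicle liver and 6.97 in the knockout vehicle liver, so the wild-type CCl4 values of 7.66, 7.82 and 8.10 lay near their own control. Without the knockout vehicle array only the wild-type response of 0.23 was left, and it was not called. Here and below, leaving out a vehicle array leaves the response of the other genotype alone and is not a refit of the mean of both. The difference between the responses was 0.96 ± 0.48 and did not pass (adjusted p = 0.293). Mcm3 and Mcm7, the remaining ring subunits, were detected on 0 arrays, and in a fit without the detection filter their differences were 0.19 and 0.14 (adjusted p 0.685 and 0.74).

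The promoters of Mcm5 and Mcm6 are shown because these helicase genes rose in both genotypes and hold letters known to be bound by E2F. The sequences are those of RefSeq (GRCm38.p6), from 250 bases before to 50 after the transcript start, in the direction of transcription. Capitals mark the E2F letters TTTCCCGC, TTTGGCGC, TTTCGCGC or TTTGCCGC on either strand, and matches that overlap run together as 1 stretch. Mcm5 lies at chr8:75109259-75109558 on the plus strand and Mcm6 at chr1:128359656-128359955 on the minus strand.
Mcm5: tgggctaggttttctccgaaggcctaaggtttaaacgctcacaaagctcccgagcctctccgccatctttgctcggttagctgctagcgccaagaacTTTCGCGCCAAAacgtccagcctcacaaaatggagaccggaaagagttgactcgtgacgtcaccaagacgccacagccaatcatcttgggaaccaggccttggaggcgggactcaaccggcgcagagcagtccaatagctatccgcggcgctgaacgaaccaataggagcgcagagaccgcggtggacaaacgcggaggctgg
Mcm6: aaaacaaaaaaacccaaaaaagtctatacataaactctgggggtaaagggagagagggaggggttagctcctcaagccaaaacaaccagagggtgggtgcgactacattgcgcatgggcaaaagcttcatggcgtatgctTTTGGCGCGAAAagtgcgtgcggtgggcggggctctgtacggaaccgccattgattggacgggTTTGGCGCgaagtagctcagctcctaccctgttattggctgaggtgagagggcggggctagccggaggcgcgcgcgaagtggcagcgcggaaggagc

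Among the helicase activation genes stood the 1 that fell. Mcm10, which binds the assembled helicase and is needed to start unwinding, stood at 9.58 and 9.46 on the wild-type and knockout vehicle arrays. After CCl4 it was at 8.10, 8.17 and 7.73 in wild type and at 8.99, 8.83 and 8.68 in knockout liver, so every CCl4 array lay below both vehicle arrays and the knockout lay above wild type without overlap. It fell by 1.10 ± 0.17 on the log2 scale (adjusted p = 0.000545) for the mean response and the difference in wild type was -1.58 ± 0.24 (adjusted p = 0.00101). In the knockout the difference was -0.62 ± 0.24 and did not pass (adjusted p = 0.0805), and without the wild-type vehicle array this knockout value is the one that remains. The second probe of Mcm10 gave -1.03 for the mean response and 0.46 for knockout minus wild type. Gins4, a GINS subunit, rose by 0.72 ± 0.19 (adjusted p = 0.0104), from 9.74 and 9.55 with vehicle to 10.25, 9.99 and 10.59 in wild type and 10.64, 10.43 and 10.29 in knockout liver. Without the knockout vehicle array its difference was 0.54 and was not called. Cdc45 was detected on 0 arrays.

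The Mcm10 promoter, at chr2:5012742-5013041 on the minus strand of GRCm38.p6, is shown for comparison with those of Mcm5 and Mcm6. It holds none of the E2F letters in full and so has no capitals. It ends in tttggcg, which is the start of TTTGGCGC, so a match that runs past the end of the window would not be seen.
Mcm10: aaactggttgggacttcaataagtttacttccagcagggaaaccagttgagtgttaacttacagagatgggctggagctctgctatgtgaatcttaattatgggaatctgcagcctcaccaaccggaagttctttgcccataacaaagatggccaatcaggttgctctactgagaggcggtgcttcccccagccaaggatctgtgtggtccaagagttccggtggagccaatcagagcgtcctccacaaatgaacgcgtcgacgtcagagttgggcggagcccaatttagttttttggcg

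Primase and polymerase genes had differences from -0.03 to 0.71, and of 4 tested 2 passed for the mean response. Pold1, the catalytic subunit of polymerase delta, rose by 0.67 ± 0.19 (adjusted p = 0.0161). It stood at 6.62 and 6.93 with vehicle, at 7.47, 6.92 and 7.48 in wild type after CCl4 and at 7.81, 7.53 and 7.50 in the knockout, so wild-type replicate 2 lay within the vehicle range. Leaving out a vehicle array left the response of the other genotype alone, 0.68 in the knockout or 0.67 in wild type, and neither was called. Prim2, the large primase subunit, was below background in both vehicle livers and rose by 0.71 ± 0.16 (adjusted p = 0.00455, at least 1.02-fold). Its values were 5.22 and 5.57 with vehicle, 6.36, 6.09 and 5.99 in wild type after CCl4 and 6.04, 6.06 and 6.13 in the knockout. Without the wild-type vehicle array the difference was 0.50 (adjusted p = 0.116).

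Pole, the catalytic subunit of polymerase epsilon, missed the threshold for the mean response (0.65 ± 0.24, adjusted p = 0.0533) and rose in wild type (1.17 ± 0.34, adjusted p = 0.0285, at least 1.08-fold). Its level was 5.06 and 5.56 on the wild-type and knockout vehicle arrays. It was detected on all 3 wild-type CCl4 arrays (6.07, 6.55 and 6.07) and on 1 of 3 in the knockout (6.25, 5.35 and 5.45), where the difference was 0.12 ± 0.34 (adjusted p = 0.818). The 2 responses differed by -1.05 ± 0.48, which did not pass (adjusted p = 0.253). Pola2, the accessory subunit of polymerase alpha, was at -0.03 ± 0.19. Pola1 was detected on 0 arrays and Prim1 on 2 CCl4 arrays.

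The clamp, its loader and the single-strand binding protein rose, with all 4 tested genes past the threshold for the mean response and differences from 0.60 to 1.06. Rfc4, a clamp loader subunit, rose by 1.06 ± 0.17 (adjusted p = 0.000595), from 7.34 and 7.14 with vehicle to 8.30, 8.19 and 8.35 in wild type and 8.62, 8.20 and 8.17 in knockout liver. A second Rfc4 probe above background gave 0.45. Rfc5, of the same complex, rose by 0.60 ± 0.15 (adjusted p = 0.00864), from 7.34 and 7.40 to 7.84, 8.03 and 7.86 in wild type and 8.08, 8.0 and 7.98 in knockout liver. The CCl4 and vehicle arrays of both genes did not overlap, though Rfc5 was not called without the knockout vehicle array (0.57, adjusted p = 0.0697).

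Rpa2, a subunit of the complex that coats unwound DNA, was below background with vehicle (5.49 and 5.77) and rose by 0.86 ± 0.23 (adjusted p = 0.0123, at least 1.33-fold). After CCl4 it was at 7.05, 6.62 and 6.73 in wild type and at 6.60, 6.28 and 5.68 in knockout liver. The genotypes did not overlap, but knockout replicate 3 lay between the vehicle arrays, and the genotype difference of -0.61 ± 0.23 did not pass (adjusted p = 0.128). Its second probe gave -0.09 for that difference and 0.89 for the mean response. Without the wild-type vehicle array the response was 0.42 (adjusted p = 0.362). Pcna, the sliding clamp, rose by 0.64 ± 0.20 (adjusted p = 0.0278), and without the wild-type or the knockout vehicle array this was 0.72 or 0.55 and not called.

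Fen1 and Lig1, which trim and seal the fragments of the lagging strand, both rose in both genotypes. Fen1 stood at 7.08 and 7.55 with vehicle, at 9.51, 9.43 and 9.34 in wild type after CCl4 and at 8.66, 8.81 and 8.67 in the knockout. The 3 groups of values were well apart, with the knockout between vehicle and wild type. The mean response was 1.76 ± 0.15 (adjusted p = 7.18e-06), made of 2.35 ± 0.21 in wild type and 1.16 ± 0.21 in the knockout. Lig1 rose by 1.25 ± 0.17 (adjusted p = 0.000224), from 6.27 and 6.75 to 7.80, 7.84 and 8.14 in wild type and 7.77, 7.37 and 7.61 in knockout liver.

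Among the chromatin genes, all 3 that were tested rose (18.9% of all genes rose). Each was below background with vehicle and could enter the test only by being high after CCl4. This count is therefore not evidence by itself. Uhrf1, which reads hemimethylated DNA at the fork and brings in the maintenance methyltransferase, was below background on both vehicle arrays (4.67 in wild type, 5.59 in the knockout). It reached 9.57, 8.83 and 9.01 in wild type and 9.33, 8.85 and 8.79 in knockout liver after CCl4, with overlapping genotypes. The difference was 3.93 ± 0.22 (adjusted p = 3.36e-07), at least 7.88-fold. A second Uhrf1 probe was detected on 0 arrays. Chaf1a and Chaf1b, subunits of the complex that places histones on new DNA, were also below background with vehicle and rose by 1.51 ± 0.17 (at least 1.29-fold) and 1.02 ± 0.15 (at least 1.48-fold). Chaf1a stood at 5.01 and 4.89 with vehicle, at 6.68, 6.60 and 6.80 in wild type after CCl4 and at 6.49, 5.99 and 6.18 in the knockout, which lay below wild type without overlap. Chaf1b stood at 5.60 and 5.67 with vehicle, at 6.69, 6.59 and 6.64 in wild type and at 6.72, 6.56 and 6.74 in knockout liver.

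RefSeq lists 2 promoters for Uhrf1, and the downstream one, at chr17:56304063-56304362 on the plus strand of GRCm38.p6, is shown because it holds E2F letters (capitals) and Uhrf1 rose from below background.
Uhrf1: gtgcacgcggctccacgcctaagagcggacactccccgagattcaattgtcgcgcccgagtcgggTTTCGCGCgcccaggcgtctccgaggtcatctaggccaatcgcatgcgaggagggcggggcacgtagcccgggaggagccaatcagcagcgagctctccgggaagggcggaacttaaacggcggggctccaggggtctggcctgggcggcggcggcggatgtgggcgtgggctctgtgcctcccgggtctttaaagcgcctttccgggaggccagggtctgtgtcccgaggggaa

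Of the 6 nucleotide supply genes, 5 rose and Dut did not pass. Tyms, which makes thymidylate, stood at 8.43 and 8.18 with vehicle, at 10.39, 10.28 and 10.53 in wild type after CCl4 and at 10.47, 10.44 and 9.98 in the knockout. It rose by 2.04 ± 0.17 (adjusted p = 8.64e-06), with 1.97 ± 0.25 for wild type and 2.12 ± 0.25 for the knockout, and its second probe above background rose by 1.72. Rrm1, the large subunit of ribonucleotide reductase, rose by 1.19 ± 0.18, from 6.70 and 7.07 to 7.67, 8.06 and 8.23 in wild type and 8.32, 8.15 and 8.04 in knockout liver. Rrm2, the small subunit made in S phase, rose by 1.04 ± 0.18, with 1.85 for its second probe. Tk1, the cytosolic thymidine kinase, rose by 1.12 ± 0.18, from 8.81 and 8.50 to 9.64, 10.21 and 9.74 in wild type and 9.74, 9.58 and 9.74 in knockout liver, with 0.51 for its second probe above background. With the probes used in the tests, all CCl4 arrays lay above both vehicle arrays for these 4 genes. With the second Tk1 probe they overlapped, since wild-type and knockout replicate 1 stood at 6.57 and 6.54 and the vehicle arrays at 6.57 and 6.25.

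Dut, which removes dUTP so that uracil is not built into DNA, was at -0.44 ± 0.22 (adjusted p = 0.135). Its values were 6.49 and 6.57 with vehicle, 5.71, 6.49 and 5.62 in wild type after CCl4 and 6.31, 6.20 and 6.24 in the knockout, and without wild-type CCl4 replicate 2 it was called lower (-0.58, adjusted p = 0.00982). Ung, the glycosylase that cuts uracil out of DNA, stood at 8.0 and 7.67 with vehicle, at 8.42, 7.74 and 8.09 in wild type after CCl4 and at 9.35, 8.66 and 8.91 in the knockout. Its CCl4 response was 1.30 ± 0.31 in the knockout (adjusted p = 0.0117) and 0.08 ± 0.31 in wild type (adjusted p = 0.875), and the difference between these responses, 1.21 ± 0.44, did not pass (adjusted p = 0.173). The mean response of 0.69 ± 0.22 (adjusted p = 0.029) became 0.08 without the knockout vehicle array.

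E2f1, an activating E2F factor, rose by 1.74 ± 0.20 (adjusted p = 6.72e-05). It was below background in the wild-type vehicle liver (5.06) and detected in the knockout vehicle liver (6.13), and it reached 7.60, 7.25 and 7.26 in wild type and 7.66, 7.29 and 6.97 in knockout liver after CCl4. E2f2, a close relative, rose by 0.60 ± 0.18 (adjusted p = 0.0201) from 5.32 and 5.52 to 5.68, 5.94 and 6.19 in wild type and 6.0, 6.29 and 6.01 in knockout liver, all near background. Without the wild-type or the knockout vehicle array E2f2 was at 0.58 or 0.61 and not called.

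**Figure D2:**
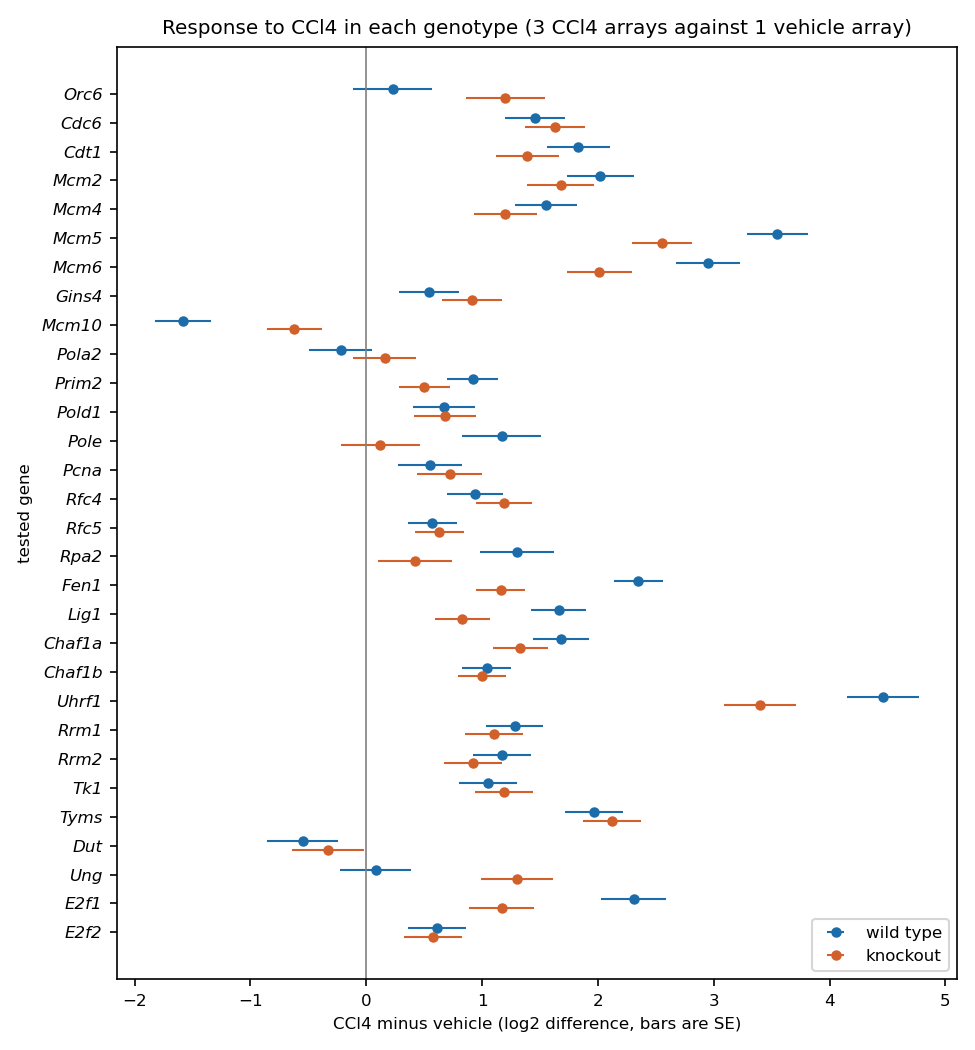
CCl4 minus vehicle (log2 difference, horizontal axis, bars are SE) for the 30 tested genes in wild type (blue) and in the knockout (orange), each from 3 CCl4 arrays and 1 vehicle array. Most points of both colours lie right of 0. Mcm10 and Dut lie left of it in both genotypes and Pola2 in wild type only. The orange point lies left of the blue one for 17 genes, including Fen1, E2f1, Mcm5, Mcm6 and Uhrf1. It lies right of the blue one for 13, including Ung, Orc6 and Mcm10.

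In wild type alone, 20 of the 30 genes rose and 1 fell (24% of all genes changed, 12.4% up and 11.6% down), with a median difference of 1.17. In the knockout alone, 21 rose and 0 fell (26% of all genes, 13.1% up and 12.9% down), with a median of 1.13. Of the 15 genes detected on all 8 arrays, 8 rose and 1 fell in wild type, against 9.81% up and 10.3% down among all genes so detected. In the knockout 12 of these 15 rose and 0 fell, against 10.8% up and 11.9% down. The wild-type and knockout counts rest on different vehicle arrays, and with 1 vehicle array per genotype the fit borrowed its spread from the CCl4 arrays. Tested directly, the response differed between genotypes for 0 of 30 genes by limma (0.358% of all genes), while 8 of the 30 had an unadjusted p under 0.05, as did 20% of all genes. Fen1 was nearest, with a response lower by 1.19 ± 0.29 in the knockout (adjusted p = 0.0819).

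The comparison of the genotypes after CCl4 is the one with replicates on both sides. It called 3 of the 30 genes, 2 higher and 1 lower in the knockout, where 6.53% of all genes were called, 2.94% higher and 3.6% lower. Mcm10 was higher in the knockout by 0.84 ± 0.17 (adjusted p = 0.0202) and Ung by 0.89 ± 0.22 (adjusted p = 0.0387), while Fen1 was lower by 0.72 on the log2 scale (difference -0.72 ± 0.15, adjusted p = 0.0202). The 3 wild-type and 3 knockout arrays did not overlap for any of these genes. Other genes had separate arrays without passing: Rpa2, Lig1 and Chaf1a lay lower in the knockout, and Pold1 and Pcna higher. In all, 4 genes lay lower and 4 higher without overlap, against 16.3% and 14% of all genes. Of the lower ones, Rpa2 and Chaf1a were detected on 0 vehicle arrays, 3 wild-type CCl4 arrays and 2 knockout CCl4 arrays. They entered the test only by being high in wild type after CCl4, so their place here is not evidence by itself. The median difference of the 30 was 0.05, and -0.01 for all genes.

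These 3 calls were sensitive to the samples and the scaling. Without wild-type CCl4 replicate 1, or without any 1 of the knockout CCl4 arrays, 0 of 30 were called, and the genes called on the whole table fell from 6.53% to between 1.68% and 1.79%. Ung was also not called without wild-type CCl4 replicate 2 (0.71, adjusted p = 0.0956) or replicate 3 (0.89, adjusted p = 0.0617), so leaving out any 1 of the 6 CCl4 arrays ended its call. With the mean of all tested probes Mcm10 was not called (0.65, adjusted p = 0.0577). The differences kept their sign without each CCl4 array, from 0.76 to 0.91 for Mcm10, from 0.70 to 1.06 for Ung and from -0.76 to -0.67 for Fen1. Scaling the arrays to a common median in place of quantile normalization moved the median of all genes to -0.17 and gave 0 higher and 4 lower, namely Fen1, Rpa2, Lig1 and Chaf1a. Under that scaling 172 of all 7257 genes were higher and 706 lower. The limit given above for Rpa2 and Chaf1a holds here too. Relative to their 95% intervals, 25 of the 30 differences were bounded within 1 log2 unit on either side of 0 and 9 within 0.5.

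**Figure D3:**
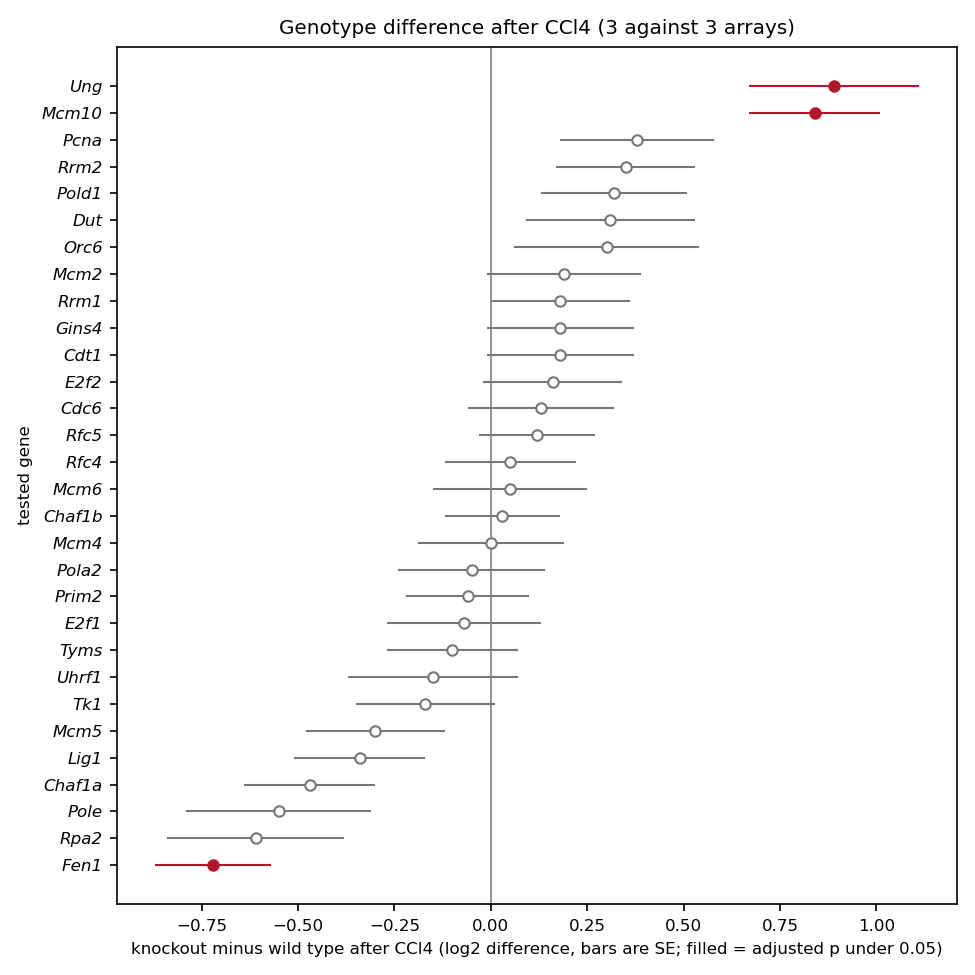
Knockout minus wild type after CCl4 (log2 difference, horizontal axis, bars are SE, 3 arrays per genotype) for the 30 tested genes in order of the difference. Filled red points mark the genes with an adjusted p under 0.05, Ung and Mcm10 at the top and Fen1 at the bottom, and most other genes lie near 0.

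**Figure D4:**
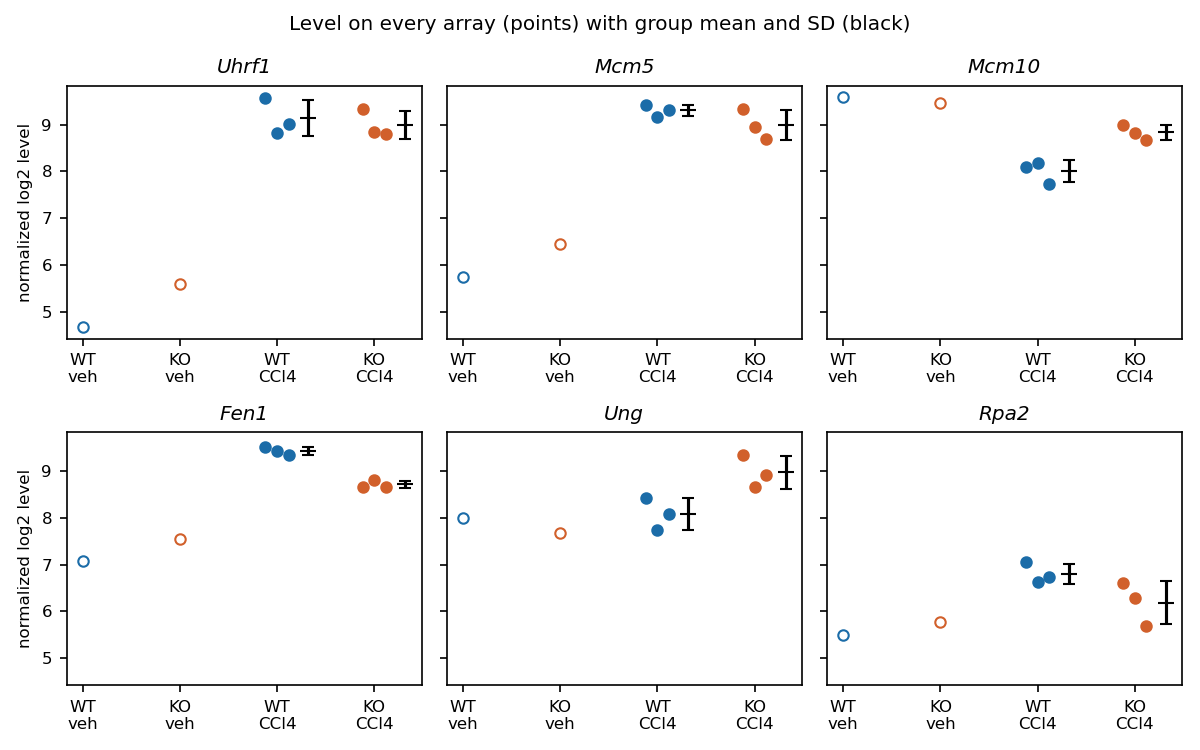
Normalized log2 level (vertical axis) of 6 genes on every array, with open points for the vehicle arrays, filled points for the CCl4 arrays, blue for wild type and orange for the knockout, and the mean and SD of each CCl4 group in black. Uhrf1 and Mcm5 rose in both genotypes with overlapping values, Mcm10 lay lower after CCl4 with the knockout above wild type, and Fen1, Ung and Rpa2 had genotypes that did not overlap after CCl4.

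Among the 6 CCl4 arrays, knockout replicate 1 held the highest value for 13 of the 30 genes (43.3%), where it was the highest for 17.3% of all genes. Orc6 (8.77) and Pcna (8.22) stood apart there from the other knockout arrays. The summed linear signal of the 3 tested neutrophil markers was 5886 on that array, 1904 on knockout replicate 2 and 7595 on knockout replicate 3, and 1962 to 2659 in wild type. S100a8 and S100a9 made up most of this sum. The remaining marker, Retnlg, stood at 7.61, 5.72 and 7.05 in the knockout and at 7.50, 7.48 and 7.19 in wild type. The part of this in the genes described was not tested.

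The vehicle livers, had 1 array each, and so no test. In the knockout vehicle liver 20 of the 30 stood above wild type and 10 below, with a median difference of 0.24 against -0.01 for all genes. By more than 0.5, 8 stood above (11.7% of all genes) and 1, Orc6, below (12.3% of all genes). Of those 8 only Cdt1 was detected on both vehicle arrays (6.30 in wild type, 6.93 in the knockout), and the others have a value below background on at least 1 side. Of the 16 members detected on both, 9 stood above and 7 below, 1 of them by more than 0.5 each way (Cdt1 and Orc6), against 9.09% above and 10.3% below among the 6138 genes so detected. Mcm5, Mcm6, Rrm2 and E2f1 were detected in the knockout vehicle liver only, and Pola2 in the wild-type one only. These values enter the responses of each genotype above, since a higher vehicle value gives a smaller response.

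Among 182 other genes of the same pathways, 154 were on the array and 99 were tested. After CCl4 37 rose and 13 fell as the mean of both genotypes (18.9% of all genes up, 18.6% down). Here too a gene below background in both vehicle livers could enter only by being high after CCl4, as Top2a and Clspn did. The count of risers is therefore not evidence by itself. At the fork and in licensing 13 of 25 rose and 4 fell. Dbf4, which activates the Cdc7 kinase at origins, rose by 2.66 ± 0.16, Top2a, which untangles copied DNA, by 2.53 ± 0.19 (at least 2.95-fold), and Clspn, a fork checkpoint mediator, by 1.47 ± 0.18 (at least 1.38-fold). The 4 that fell were the origin recognition subunits Orc3 (-0.63 ± 0.16) and Orc5 (-0.77 ± 0.17) and the small polymerase subunits Pold2 (-0.53 ± 0.16) and Pole4 (-0.56 ± 0.20).

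Nucleotide metabolism outside the 38 genes had 9 of 37 higher and 8 lower, shares near those of all genes (18.9% up, 18.6% down). Nme1, a nucleoside diphosphate kinase, rose by 1.39 ± 0.17 and Upp1, a uridine phosphorylase, by 1.43 ± 0.18. The fallers were Upp2, the liver uridine phosphorylase (-3.05 ± 0.48), Dpyd, which starts pyrimidine breakdown (-1.82 ± 0.28), Slc29a1, a nucleoside transporter (-1.37 ± 0.15), Adssl1 (-1.22 ± 0.23), Shmt1 (-0.99 ± 0.16), Paics (-0.90 ± 0.16), the mitochondrial kinase Tk2 (-0.84 ± 0.16) and Umps (-0.66 ± 0.16). They include genes of breakdown, salvage, folate and new synthesis.

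In G1 and S phase control 7 of 19 rose and 1 fell (18.9% of all genes up, 18.6% down). The limit on genes below background with vehicle, given above, holds for the counts of this paragraph too. Cdkn1a, the p21 inhibitor of cyclin-dependent kinases, rose by 3.26 ± 0.22, Ccnd1 by 2.11 ± 0.20 and Ccne1 by 1.71 ± 0.15 (at least 1.97-fold), and Ccnd2 was the one that fell (-0.54 ± 0.17). Of checkpoint and fork repair genes 4 of 13 rose and 0 fell, among them Blm (1.46 ± 0.16), Fanci (0.91 ± 0.16) and Usp1 (0.60 ± 0.15). Of other chromatin genes 4 of 5 rose, with Dnmt1, the maintenance methyltransferase that Uhrf1 brings in, at 1.08 ± 0.16, Hat1 at 0.98 ± 0.17 and Nasp at 0.79 ± 0.18.

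Between the genotypes after CCl4, 5 of the 99 were higher in the knockout and 8 lower (2.94% and 3.6% of all genes). The histone chaperone Rbbp7 was lower by 1.32 on the log2 scale (difference -1.32 ± 0.15, adjusted p = 0.000692), at 9.28, 9.16 and 9.31 in wild type and 7.86, 7.93 and 8.01 in knockout liver, with vehicle values of 7.85 and 8.30. Top2a was lower (-1.11 ± 0.19, adjusted p = 0.0109), as were Tfdp2, Nasp, Fanci, Dbf4, Ppat and Rpa1, from -0.82 to -0.60. Pole4 (0.86 ± 0.20), Orc4 (0.77 ± 0.17), Upp1 (0.71 ± 0.18), Aprt (0.70 ± 0.18) and Shmt1 (0.62 ± 0.16) were higher. Median scaling gave 3 higher and 18 lower in place of 5 and 8. For all 7257 genes it gave 172 higher and 706 lower in place of 213 and 261.

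Some markers of other cell types moved with the same comparisons, and their part in the results was not tested. After CCl4 the 3 tested neutrophil markers of 9 listed rose (S100a8 by 2.55, S100a9 by 2.57, Retnlg by 2.46), and their summed linear signal went from 478.3 and 630.1 with vehicle to between 1904 and 7595. Elane and Ngp were detected on 0 arrays, and the brightest probes of Mpo, Camp and Ltf only on knockout CCl4 replicate 3. Stellate cell and fibroblast markers rose for 4 of 7 and fell for 1, where 18.9% of all genes rose and 18.6% fell. Those of sinusoidal endothelium rose for 2 of 6 and those of macrophages for 1 of 7, the latter not above the share of all genes. The 7 tested hepatocyte markers of 10 had differences from -0.23 to 0.14, none past the threshold, and their sums were 73120 and 91700 with vehicle and 77530 to 86660 after CCl4. Of 10 T and NK cell markers and 6 cholangiocyte markers 0 were tested. Erythroid markers rose for 1 of 5 and fell for 3, and of the B and plasma cell markers 1 was tested and not called.

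After CCl4 the knockout sums lay below wild type without overlap for stellate cell and fibroblast markers (7841 to 8253 against 9897 to 12330). The same held for sinusoidal endothelium (4848 to 5075 against 6012 to 6623). This is the direction of Fen1 and opposite to that of Mcm10 and Ung. The sums follow their brightest genes, such as Dcn (-0.35) and Clec4g (-0.33), which were not called. Col1a1 was lower in the knockout (-1.45, adjusted p = 0.00364, at least 1.57-fold), and so were Lyve1 (-0.84) and Stab2 (-0.59). Col1a1 was detected on the 3 wild-type CCl4 arrays only and entered the test only by being high there. Its call is therefore not evidence by itself.

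Of the 38 genes, 32 had promoter entries in RefSeq, 38 promoters in all, and Mcm4, Gins1, Gins2, Gins4, Prim2 and Pole had none in the table used. The E2F letters given above were found in 12 of the 38 promoters (31.6%), against 2.26% of all 32851 mouse promoters of the same length. By gene, they were found in 12 of 32 genes (37.5%), against 2.6% of all genes. They include 8 of the 23 risers with an entry. The CCAAT box, CCAAT on either strand, was found in 55.3% of the 38 promoters and in 37.4% of all, and the CHR letters TTTGAA or TTCGAA in 15.8% and 19.2%. Matches of different motifs were counted apart and may overlap. The promoters of these genes were richer in G and C, with a median of 59.8% against 52.7%, and the shares above were not matched for it.

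Besides Mcm5, Mcm6 and Uhrf1, the risers with E2F letters were Cdc6, Cdt1, E2f2, Lig1 and Pold1. They are shown as short windows around the match, in the direction of transcription with the E2F letters in capitals, so that the shared core can be read against its flanks. On GRCm38.p6 the windows are chr11:98908002-98908031 (plus strand) for Cdc6, chr8:122568036-122568064 (plus) for Cdt1, chr4:136172302-136172323 (plus) for E2f2, chr7:13278841-13278870 (plus) for Lig1 and chr7:44548766-44548787 (minus) for Pold1.
Cdc6: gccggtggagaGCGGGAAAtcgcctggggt
Cdt1: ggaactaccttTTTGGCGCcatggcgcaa
E2f2: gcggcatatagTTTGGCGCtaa
Lig1: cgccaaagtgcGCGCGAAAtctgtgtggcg
Pold1: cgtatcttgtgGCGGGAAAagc
The first base of the match lay 138 bases before the start in Cdc6 (position -138) and after it in Cdt1, E2f2, Lig1 and Pold1 (positions 33, 40, 27 and 40). Mcm3, Mcm7 and Pola1, whose probes were not tested, and Rfc3, which had no probe, also held such letters. A match describes letters and is not a bound site, and genes without a match in these windows, such as Tyms, Fen1 and Mcm2, rose as well.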

How the data were processed

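Per the labels' protocols, liver RNA was labelled as biotinylated cRNA; the scanner software is not given in the sources used here. Deposited first was a raw table. It holds a linear intensity per probe, not normalized between arrays, and, per the file headers, a detection p-value beside it. The deposited value table equals that intensity minus 1 constant per array (48.6 to 56.8; medians 12.3 to 20.0; linear, same direction, the reason for the constant unknown) and served as an alternative.

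The neqc function of limma 3.58.1 (R 4.3.3, offset 16) corrected the background and applied quantile normalization. Probes with 1 symbol in the platform annotation (23978, with 1719 unnamed and 0 with several) were kept if all arrays of 1 group or more had a detection p below 0.01, and the brightest kept probe (by mean) represented its gene; 23962 matched RefSeq of GRCm38.p6. Group means were fitted with lmFit and eBayes on 8 arrays (4 residual degrees of freedom, from the 6 CCl4 arrays), 2-sided, Benjamini-Hochberg adjusted over 7257 genes at 0.05, and checked on simulated data. "At least" folds replace a lower-group value by the lowest detected signal of its array where that is higher. Replicate numbers did not pair the samples. The number of arrays limits the precision. Genes named are the 3 of each role with the smallest p for CCl4 and any called between genotypes; of the other lists, also those moving against the majority. Others are given briefly. The 38 genes and the lists were chosen with earlier results of these data known.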

Additional observations from a re-analysis of the deposited data

Results flagged for a closer look

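Orc4, an origin recognition subunit outside the 38 genes, had CCl4 arrays that all lay below the vehicle array in wild type (5.70, 5.88 and 6.04 against 6.77) and all above it in the knockout (6.88, 6.51 and 6.53 against 6.44). The responses differed by 1.10 ± 0.34, which did not pass (adjusted p = 0.13).

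Rbbp7 had responses that differed between the genotypes by -1.77 ± 0.29 (knockout minus wild type, adjusted p = 0.0258), with 1.40 ± 0.21 in wild type and -0.36 ± 0.21 in the knockout. Each response rests on 1 vehicle array.

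Prim1, the small primase subunit, was left out of the tests, yet its probe was detected on 2 CCl4 arrays, 1 per genotype, and on 0 vehicle arrays. Without the detection filter its difference was 0.66 ± 0.22 (adjusted p = 0.102).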

How the results depend on the processing

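Leaving out each array in turn gave 21 to 28 of the 38 genes changed by CCl4 for the mean response (27 in the main analysis), 21 to 23 in wild type, 18 to 22 in the knockout, 0 to 3 between genotypes and 0 for the difference of the responses. For the other pathway genes it gave 38 to 54 changed by CCl4 (50 in the main analysis) and 2 to 14 between genotypes (13). Where a vehicle array was left out, the mean response was that of the other genotype alone. Between genotypes, no filter on dim probes left 1 of the 38 genes, Fen1, and 2 of the other pathway genes (0.657% of all genes). Median scaling called 21 of the other pathway genes (12.1% of all genes). Using only probes detected on all 8 arrays was an alternative chosen after seeing the data, and it tests fewer genes, 15 of the 38. Of these, 15, 9 and 12 changed with CCl4 for the mean, in wild type and in the knockout (35.8%, 22.1% and 24.4% of all genes). With it, 8 other pathway genes differed between genotypes (6.66% of all genes). Rbbp7 ranged from -0.36 without the wild-type vehicle array to 1.40 without the knockout one for the mean response, since only the response of the other genotype is then left. The replicate number as a block gave 26, 21, 19, 3 and 0 for the 38 genes in the order above and 35 and 9 for the others; deviations of same-numbered arrays correlated at -0.122, -0.111 and -0.013. A block for the slide was not run, as the headers name no slides. Of the values for named genes under all alternatives, 1695 kept their direction and call, 143 lost the call, 12 gained it and 37 changed sign; the cause was not tested. Of the 37, Rbbp7 above was called and 36 were called in neither analysis, 35 of them genotype differences after CCl4. Median scaling turned those of Mcm6 and Rfc4 (each -0.17), Mcm2, Ccnd2 and Blm (each -0.03), Rfc5 (-0.10), Chaf1b (-0.18), Rrm1 (-0.04), Orc5 (-0.08), Tk2 (-0.15), Dpyd (-0.14) and Dnmt1 (-0.16). The mean of all tested probes turned Mcm6 (-0.05), Rfc4 (-0.20) and Umps (0.08). Leaving out 1 array gave ranges that cross 0 for Mcm6 (-0.12 to 0.25), Prim2 (-0.14 to 0.04), Rfc4 (-0.09 to 0.13), Uhrf1 (-0.31 to 0.07), Tyms (-0.19 to 0.05), E2f1 (-0.24 to 0.10), Nme1 (-0.08 to 0.13), Tk2 (-0.05 to 0.12), Paics (-0.10 to 0.04), Dpyd (-0.20 to 0.41), Dnmt1 (-0.04 to 0.14), Chaf1b (just under 0 to 0.08) and Hat1 (-0.18 to 0.08). The mean response of Orc4 ranged from -0.90 without the knockout vehicle array to 0.20 without the wild-type one. Genes near background, such as E2f2, Pole and Prim2, are those where signal limits the fold that can be given.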
